A study of Saccharomyces cerevisiae with 6 samples.

Results

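Rap1 binding in the first 2 h after histone H4 synthesis was switched off was described from the Rap1 ChIP-seq peak lists of Saccharomyces cerevisiae strain UKY403 at 0 h and 2 h. These lists hold 3650 of the 7723 peaks listed over the whole series. The 0 h group consisted of cells grown in galactose and sampled directly after the washes into dextrose medium, and the 2 h group of cells of the same strain after 2 h of further growth in dextrose. Each group had 2 biological replicates from separate time courses, precipitated with the same Rap1 antibody, but 1 peak list was deposited per time point. All cells were of the H4 shutoff strain, and the move from galactose to dextrose accompanies the loss of H4 synthesis, so that sugar and H4 supply cannot be told apart between these groups. The isogenic strain UKY412 was not analysed here.

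A peak of the 0 h list that shared at least 1 bp with a 2 h peak was counted as retained, and otherwise as lost. A 2 h peak that shared no base with any 0 h peak was counted as new. Of 1212 peaks at 0 h, 1041 were retained and 171 (14.1%, interval 12.2 to 16.2%) were lost. Of 2438 peaks at 2 h, 1051 were retained and 1387 (56.9%) were new. These counts depend on how many peaks a list holds: with the 2 h list shortened to the 1212 peaks of highest −log10 q, 410 peaks were lost and 416 were new. Intervals here and below are 95% exact binomial intervals that treat peaks or genes as draws. They cover counting error only and do not stand in for replicates.

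Rap1 is a sequence-specific DNA-binding protein that activates genes of ribosomal proteins, translation factors and glycolytic enzymes, and that binds the repeats of yeast telomeres, where it recruits silencing factors. In most promoters its sites lie in stretches kept free of nucleosomes. Inside genes, nucleosomes cover most of the DNA, and sequences that resemble a Rap1 site can be covered by them.

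Peak height is given as the pileup, the number of extended tags over the summit, per 1000000 tags left after removal of duplicates, and is called the scaled height. The lists rested on 983197 and 1483679 such tags at 0 h and 2 h, so 1 tag corresponded to a scaled height of 1.02 and 0.674. Duplicate removal left at most 1 tag at any position of a strand, which limits a pileup to 292, a scaled height of 297 at 0 h and of 197 at 2 h. The lowest local background was 12.0 on this scale in both lists. It is the caller's genome average, so it is equal by construction and does not show that the lists are comparable. With 1 list per group there is no spread between replicates, and no test compared the times.

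Retained peaks were the highest, and new and lost peaks were low and alike in height. The scaled height had a median of 35.6 for lost peaks (quartiles 31.5 and 41.7), and of 39.1 for new peaks (31.7 and 53.9). Retained peaks had a median of 104 in the 0 h list (51.9 and 231) and of 94.4 in the 2 h list (51.2 and 168). New and lost peaks differed in where they lay. A summit inside any coding span was counted as coding, with spans taken from start to end and any introns included. One outside all of them but at most 500 bp in front of a gene's first codon was counted as upstream, and the rest as elsewhere. Of new peaks, 1192 (85.9%) were coding, 115 upstream and 80 elsewhere, and of lost peaks 9 (5.26%, interval 2.43 to 9.76%) were coding, 102 upstream and 60 elsewhere. The share of the genome that lies in coding spans was not computed, so 85.9% by itself does not show a preference for genes. Coding spans held 0.135 new summits per kb, and whole chromosomes 9.84 to 14.1 new peaks per 100 kb.

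**Figure D1:**
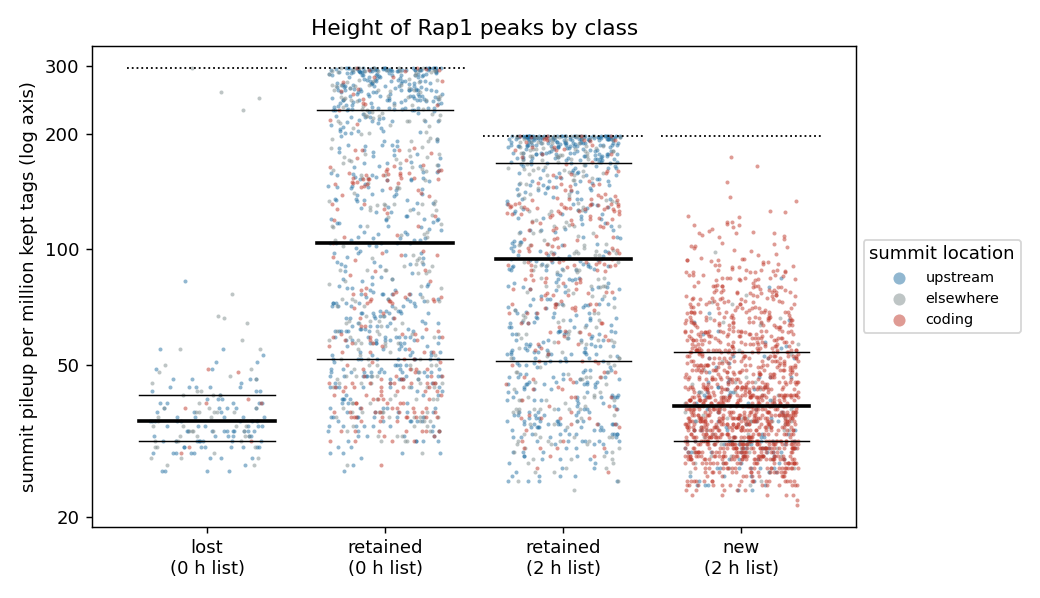
Scaled height (pileup per 1000000 kept tags, log axis) of every lost, retained and new peak, coloured by summit location. Thick and thin bars are medians and quartiles, and dotted lines mark the highest value each list allows (297 at 0 h, 197 at 2 h). New peaks are low (median 39.1) and mainly coding, whereas lost peaks are low (median 35.6) and mainly not coding.

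The highest new peak inside a gene lay in PHD1, which encodes a transcription factor of filamentous growth, on chromosome XI from 357353 to 357723, with a scaled height of 174 and the summit 777 bp into a span of 1101 bp. The second lay in TOS6, a gene of a predicted cell wall protein, at chromosome XIV, 65850 to 66166 (165). Its summit was 274 bp into a span of 309 bp and also within 500 bp upstream of TRF5. CWP2, which encodes a cell wall mannoprotein, likewise had its new summit near the end of a short span, 245 bp into 279 bp (133). These summits near the 3' ends of spans, like that of ATP11 (800 bp into 957 bp, and within 500 bp upstream of PHA2), were counted as coding although the next gene starts close by.

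The other new coding peaks among the leading 8 were in genes of several functions. ATP11, for an assembly factor of the ATP synthase, had a new peak of 150, and TIM44, for a subunit of the mitochondrial protein import motor, one of 137. In ICL1, which encodes isocitrate lyase of the glyoxylate cycle, the new peak reached 126. GDE1, for a glycerophosphodiesterase, and VPH1, for a subunit of the vacuolar ATPase, had new peaks of 125 and 122. These 8 peaks were 230 to 7935 bp away from the nearest 0 h peak and all overlapped a peak of the 4 h list.

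New peaks upstream of genes were lower. The highest was 48 bp before the coding start of ERG7, the lanosterol synthase gene, with a scaled height of 84.3. CDC53, which encodes the cullin of the SCF ubiquitin ligase, had one of 79.5, YOL160W one of 68.1, and the shared upstream region of YLR177W and RFX1 one of 65.4. Outside both classes, the highest new peak was at 98.4 on chromosome XIV, 89071 to 89408, nearest to the G1 cyclin gene PCL1. The next were nearest to MCM6 (76.2), which encodes a subunit of the replicative helicase, to SOA1 (72.8) and to NGK1 (72.1).

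Measured against the heights of the 0 h list, a minority of new peaks were strong. The median scaled height of all 0 h peaks was 76.3, and 110 of 1387 new peaks (7.93%) were above it, of which 107 were coding. Above the first quartile of the 0 h list (43.7) were 544 new peaks (39.2%). Only 82 (5.91%) were below its lowest peak (26.4). Scaled by kept tags, nearly all new peaks thus lay in a range of heights that the 0 h list also covers. This depends on the scaling: with total tags in place of kept tags, only 897 of the 1387 new peaks reached the height of the lowest 0 h peak.

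New peaks were not mainly edges of older ones. The median gap between a new peak and the nearest 0 h peak was 3101 bp (quartiles 1076 and 6929 bp). Within 500 bp lay 162 new peaks (11.7%), and 501 (36.1%) were more than 5000 bp away. Per 100 kb, new peaks numbered from 9.84 on chromosome XIII to 14.1 on chromosome VI, and on each chromosome at least 75% of them were coding.

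New summits were found along the whole coding span. In 5 equal parts of the span, from start to end, lay 18.7, 23.2, 20.1, 20.9 and 17.1% of the 1192 new coding summits. The first and the last 200 bp of the span each held 151 of them (12.7%). Of the 224 coding summits at 0 h, 24.1 and 29.0% lay there, in spans that were shorter (median 1317 bp against 1741.5 bp). The middle part held 28.6% of them (interval 22.8 to 35.0%), but 21.3% (15.6 to 28.1%) once 75 unnamed reading frames of shared length were left out, a choice made after seeing the data that leaves 178 summits. New summits without these frames had 19.9% (17.6 to 22.4%) in the middle part, so the intervals then overlap.

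**Figure D2:**
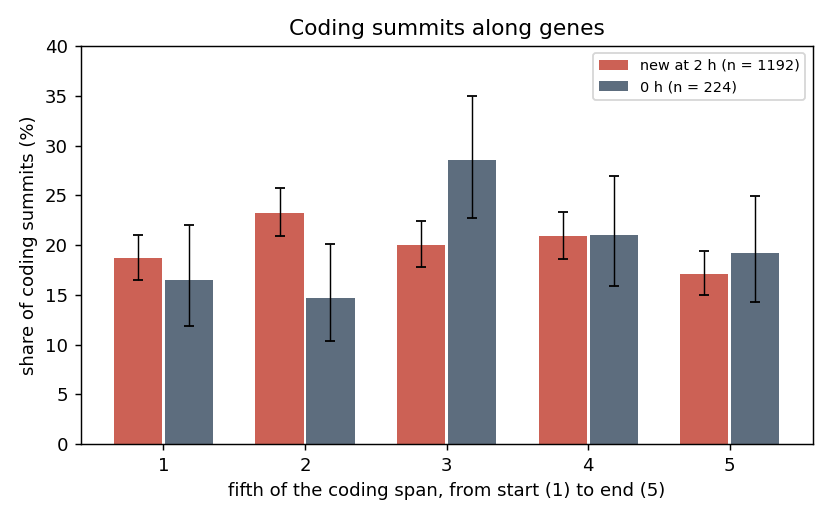
Share of coding summits (%) in each of 5 equal parts of the coding span, for the 1192 new summits at 2 h and the 224 summits at 0 h, with 95% exact binomial intervals. New summits lie between 17.1 and 23.2% in each part, and the 28.6% of 0 h summits in the middle part become 21.3% without the repeated reading frames.

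Of 6002 protein-coding genes, 1051 (17.5%) had a new summit in their span, counting each span where spans overlap. Most of them (921) had 1 such summit, 116 had 2, 13 had 3, and YFL002W-A, a reading frame of 5314 bp, had 5. Longer genes had one more often, from 5.60% of genes under 500 bp to 36.4% of genes of 3000 bp or more. The density per kb did not follow this order, with 0.169 new summits per kb in the shortest genes, 0.133 from 500 to 1000 bp, 0.156 from 1000 to 2000 bp, 0.121 from 2000 to 3000 bp and 0.114 in the longest. Genes with a Rap1 summit in their upstream region at 0 h had a new coding summit in 180 of 837 cases (21.5%, interval 18.8 to 24.4%). For the other genes it was 871 of 5165 (16.9%, 15.9 to 17.9%), with 0.182 and 0.128 new summits per kb.

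Retained sites kept their place. Of 1070 matching pairs, 985 were one to one, and in these the summit moved by a median of 9 bp, with 894 (90.8%) within 50 bp. Some 0 h peaks matched more than 1 later peak (26 peaks, at most 4), and 16 peaks at 2 h covered more than 1 earlier peak. The least overlap that counted as retained was 2 bp, on chromosome IX at 138700, between peaks with scaled heights of 32.5 and 23.6. The smallest gap that counted as new was 1 bp, on chromosome VIII, where a 0 h peak upstream of YHR020W (40.7) faced a new peak in DED81, the asparaginyl-tRNA synthetase gene (41.1).

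The highest retained peaks were at the ceiling. At 2 h 44 peaks of the list were, and the 5 of these with the highest −log10 q lay upstream of the ribosomal protein genes RPS1A and RPL35A, between TEM1 and RPS1B, near MAK10 and RPL12A on chromosome V, and at the last bases of chromosome VIII. Their scaled heights were 293 to 296 at 0 h and 197 at 2 h, and their ratios of 2 h to 0 h, from 0.665 to 0.672, follow from the ceiling. Among the 187 sites with a pileup of 250 or more at 0 h the ratio ranged from 0.621 to 0.747. At such heights the lists cannot show an increase, although a large decrease would be visible.

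Low Rap1 sites inside genes were higher at 2 h than at 0 h on this scale, and most sites upstream of genes were not. Over all 1041 retained sites the ratio of scaled height, 2 h to 0 h, had a median of 0.768. By the location of the 0 h summit the median was 1.09 for 215 coding sites (interval of the median 0.942 to 1.22), 0.728 for 565 upstream sites (0.717 to 0.741) and 0.742 for 261 sites elsewhere. At least 1.5-fold higher at 2 h were 108 sites, 10.4% of those retained. They comprised 75 coding sites (34.9%, interval 28.5 to 41.7%), 16 upstream sites (2.83%, 1.63 to 4.56%) and 17 elsewhere (6.51%). Counting lost sites as not higher, 33.5% of the 224 coding and 2.40% of the 667 upstream peaks at 0 h were at least 1.5-fold higher.

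The overall level of these ratios depends on the scaling. Dividing all heights of a list by another constant cannot change the order of the coding and upstream medians. Fold enrichment, the settings on the ceiling and the subsets of sites can change it, and in each of these the coding median was above the upstream median. The median over all sites was 0.581 with all tags in place of kept tags and 1.16 with no scaling. The coding median was 1.35 to 1.50 times the upstream median, and 1.67 times without the repeated reading frames. Upstream sites and sites elsewhere were close, and their order turned after correction for filled positions (0.854 upstream and 0.852 elsewhere with kept tags). Relative to the median site, 100 of 215 coding and 39 of 565 upstream sites were at least 1.5-fold higher. At least 1.5-fold lower were 170 sites (16.3%), but a site at the ceiling of both lists has a ratio of 0.663 and enters this count by that alone. Among the 516 sites under 146 tags in both lists, 95 were at least 1.5-fold lower, of which 65 were upstream and 3 coding. In this subset 33 of 103 coding sites and 13 of 283 upstream sites (4.59%) were at least 1.5-fold higher.

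**Figure D3:**
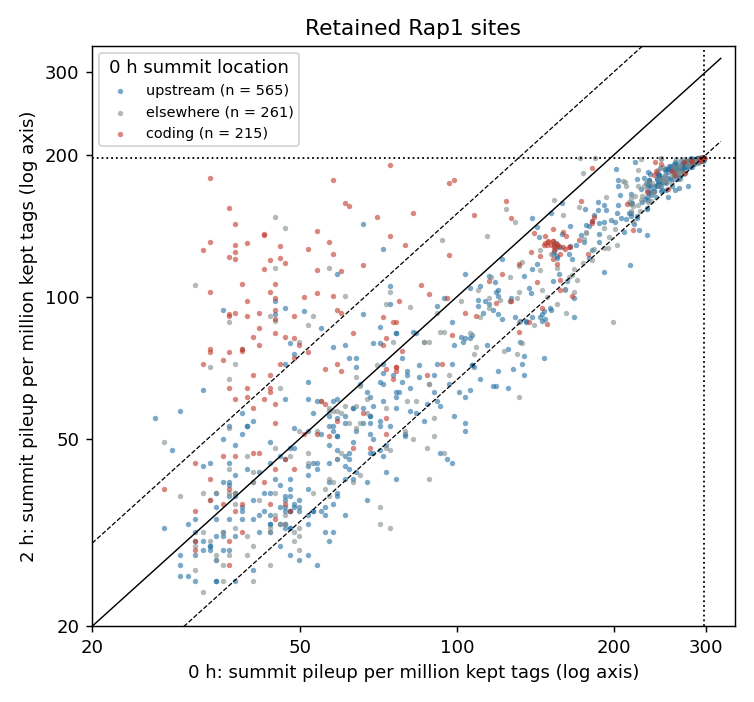
Scaled height (pileup per 1000000 kept tags, log axes) of the 1041 retained sites at 0 h and 2 h, coloured by the location of the 0 h summit. The solid line marks equal heights, dashed lines 1.5-fold differences and dotted lines the ceilings of 297 and 197. Most points above the upper dashed line are coding sites (75 of 108).

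The locations differed most among sites that were low at 0 h. Below 60 tags at 0 h the median ratio was 1.73 for coding sites (n = 107), 0.884 for upstream sites (n = 153) and 0.961 elsewhere (n = 82). In this range 65 of 116 coding peaks (56.0%, interval 46.5 to 65.2%) and 14 of 254 upstream peaks (5.51%, 3.05 to 9.08%) were at least 1.5-fold higher, with lost peaks counted as not higher. From 60 to 99 tags it was 10 of 35 coding and 2 of 94 upstream peaks. A site above 129 tags at 0 h cannot be 1.5-fold higher at 2 h because of the ceiling. From 100 to 129 tags, none of 11 coding, 39 upstream and 23 other retained sites was, with median ratios of 0.894, 0.776 and 0.813. From 200 tags on, where the ceiling limits the ratio, the medians were 0.689, 0.689 and 0.699.

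**Figure D4:**
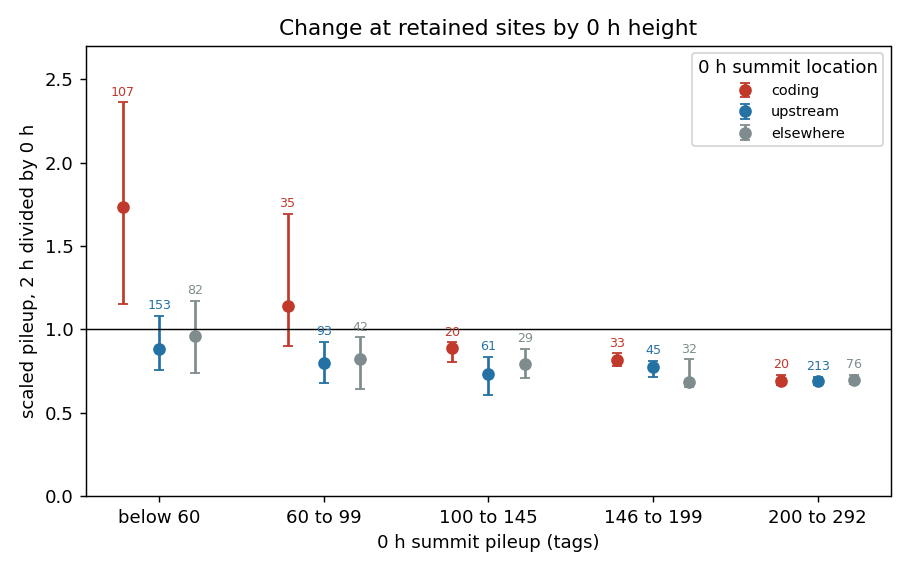
Ratio of scaled height, 2 h divided by 0 h, at retained sites by 0 h pileup and location (points are medians, bars quartiles, numbers the sites). Coding sites below 60 tags have a median of 1.73 against 0.884 upstream, and from 200 tags on, where the ceiling of the 2 h list limits the ratio, the medians are 0.689 to 0.699.

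The 5 largest ratios among sites under 146 tags in both lists lay at genes of several kinds. GGC1, which encodes the mitochondrial GTP/GDP carrier, had a scaled height of 36.6 at 0 h and 91.7 at 2 h (2.50-fold). VTC5, for a subunit of the vacuolar polyphosphate polymerase, had 39.7 and 97.7 (2.46-fold). The repeated reading frames YDR210W-B and YOR192C-B had ratios of 2.49 and 2.45. The largest ratio, 2.63 at HSP31, joined a 0 h peak upstream of the gene (35.6) with a 2 h peak whose summit was in its coding span (93.7) and rests on 21 shared bp. Of the 75 coding sites that were at least 1.5-fold higher, 67 had both summits within 50 bp.

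Without the limit of 146 tags, higher ratios occurred in genes chosen after their values were seen. RRP14, for a ribosome biogenesis factor, had scaled heights of 36.6 and 154 (4.22-fold), and PHO87, for a phosphate transporter, 33.6 and 131 (3.90-fold). FUI1, the uridine permease gene, had 37.6 and 142, and SPT5, for a transcription elongation factor, 37.6 and 129. The highest ratio, 5.32 at LSM12, joined a narrow 0 h peak with a wide 2 h peak whose summit lay upstream of CIA2.

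The largest decreases in height among sites under 146 tags lay outside genes. An intergenic peak on chromosome IV, 1507006 to 1507432, nearest to the glycerol transporter gene STL1, had scaled heights of 74.2 at 0 h and 32.4 at 2 h (ratio 0.436). Upstream of TMA10 they were 97.6 and 44.5 (0.456). The other 3 were a site near YJL052C-A and TDH1, which encodes a glyceraldehyde-3-phosphate dehydrogenase (0.464), one nearest to WTM2 (88.5 and 41.1, ratio 0.465) and one nearest to the cell wall gene CWP1 (131 and 61.3, ratio 0.467).

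Many Rap1 sites inside genes lay in unnamed reading frames of shared length. The gene table holds 75 unnamed reading frames of 1000 bp or more with lengths of 1317, 1323, 5269 or 5314 bp, each length shared by at least 5 of them, and 46 of the 215 retained coding sites lay in these. With a pileup of 100 or more at 0 h there were 28 such sites, of which 27 had their summit 600 to 650 bp after the start of the shortest such frame. Their scaled heights had medians of 153 at 0 h and 129 at 2 h, and the ratios ranged from 0.754 to 0.970. The other 18 sites, below 100 tags, had a median ratio of 1.65, and 10 of them were at least 1.5-fold higher. The sources used here do not give how tags that match several copies were placed, so these sites may not be separate measurements. Without all 46, 65 of 169 coding sites (38.5%, interval 31.1 to 46.2%) were at least 1.5-fold higher. New summits in these frames numbered 52 (3.75% of new peaks).

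Lost sites were low, apart from those in the rRNA genes. Below 40 tags at 0 h, 121 of 253 peaks (47.8%) were lost, from 40 to 59 tags 41 of 251 (16.3%), and from 60 to 99 tags 5 of 175 (2.86%). All 4 lost peaks of 100 tags or more lay in the rRNA gene repeat of chromosome XII, from 455396 to 463945. There the scaled local background was 169 to 186 and the fold enrichment over it 1.35 to 1.60. Peaks in the rRNA gene region numbered 11 at 0 h, of which 7 were retained and 4 lost. At 2 h there were 3, of which 2 were retained and 1 new, so the fall in number is not a count of lost sites. Outside the rRNA gene region, the highest lost peak was upstream of GPG1 and next to the splicing helicase gene PRP43, with a scaled height of 82.4.

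The second lost peak outside that region, between RGT2 and ARF2 on chromosome IV (76.3), was 349 bp away from a new peak inside RGT2, the gene of a glucose sensor (65.4). The next 4 had scaled heights of 58.0 to 67.1, were nearest to PAU4, PAU22, COS3 and PAU18, and lay 72 to 166 bp from a 2 h peak. The 9 lost coding peaks had scaled heights of 29.5 to 48.8 and lay in genes that included HMRA1, at a silent mating locus, WAR1, PUS2 and CIN2. The share lost was 4.02% inside genes (9 of 224, interval 1.85 to 7.49%), 15.3% upstream (102 of 667, 12.6 to 18.3%) and 18.7% elsewhere (60 of 321). Summits within 200 bp of a tRNA gene made up 14 of 171 lost peaks (8.19%, interval 4.55 to 13.4%), 22 of 1041 retained peaks at 0 h (2.11%, 1.33 to 3.18%) and 9 of 1387 new peaks (0.649%, 0.297 to 1.23%). Within 1000 bp of a chromosome end, 1 peak was lost, 31 were retained and 1 was new.

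Among genes that Rap1 is known to activate, the ribosomal protein genes kept their upstream peaks. Of 137 members, 109 had a retained summit within 500 bp upstream at 2 h, against 11.8% of all genes, and 0 had a lost one, against 2.17% of all genes. Their 104 upstream peaks at 0 h had a median scaled height of 285, and 83 of them had 250 tags or more, so that most of the ratios behind their median of 0.678 are limited by the ceiling. Of all upstream peaks of 200 tags or more at 0 h, 0 of 213 were lost, so this retention is not particular to ribosomal protein genes. New coding summits were found in 11 members (8.03%) against 17.5% of all genes. These genes are short (median span 771 bp against 1200 bp), and per kb they had 0.127 new summits against 0.135 over all genes. The highest were in RPL36A (80.9), RPS4A (68.1) and RPS4B (67.4), and RPL16B had a coding site that went from a pileup of 59 tags to one of 168 tags (1.89-fold on the scaled height). Spans include introns, and whether these summits lay in introns was not tested.

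Glycolytic genes had new peaks inside the genes as well as retained peaks before them. Of 20 members, 11 had a new coding summit (17.5% of all genes) and 8 a retained upstream summit (11.8% of all genes). A lost upstream summit was found in 1 member (5%), against 2.17% of all genes. Per kb the glycolytic genes held 0.441 new summits against 0.135 over all genes. The highest new peaks were in PDC5 (121) and PDC1 (111), which encode pyruvate decarboxylases, and in PGK1 (91.7), the phosphoglycerate kinase gene. The list of 20 thus counts pyruvate decarboxylase genes together with those of glycolysis itself. The PGK1 peak began 197 bp from a 0 h peak. Both 0 h coding sites of the list were at least 1.5-fold higher at 2 h. They lay in the glyceraldehyde-3-phosphate dehydrogenase genes TDH2 (39.7 and 91.0) and TDH3 (50.9 and 99.8). Both had under 60 tags at 0 h, a range in which 65 of 116 coding peaks (56.0%) of all genes were that much higher. Upstream, ENO1, for an enolase, had the highest retained peak (188).

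Translation elongation factor genes had a new coding summit in 6 of 11 members, against 17.5% of all genes. A retained upstream summit was found in 7, against 11.8% of all genes, and a lost one in 1, against 2.17% of all genes. The highest new peaks were in TEF2 (109) and TEF1 (100.4), the paired genes of elongation factor 1-alpha, and were 139 and 105 bp from 0 h peaks of their promoters. EFT2 followed at 39.1. Hexose transporter and glucose sensor genes had a new coding summit in 10 of 18 members, against 17.5% of all genes. A retained upstream summit was found in 2 (11.1%), near the 11.8% of all genes, and a lost one also in 2, against 2.17% of all genes. Of their 3 upstream peaks at 0 h, 2 were lost, against 15.3% of all 667 upstream peaks at 0 h. Among all upstream peaks below 60 tags at 0 h, 101 of 254 were lost. The hexose transporter and glucose sensor genes held 0.374 new summits per kb against 0.135 over all genes. HXT5 (85.6) and HXT2 (74.1) were the highest, followed by RGT2.

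**Figure D5:**
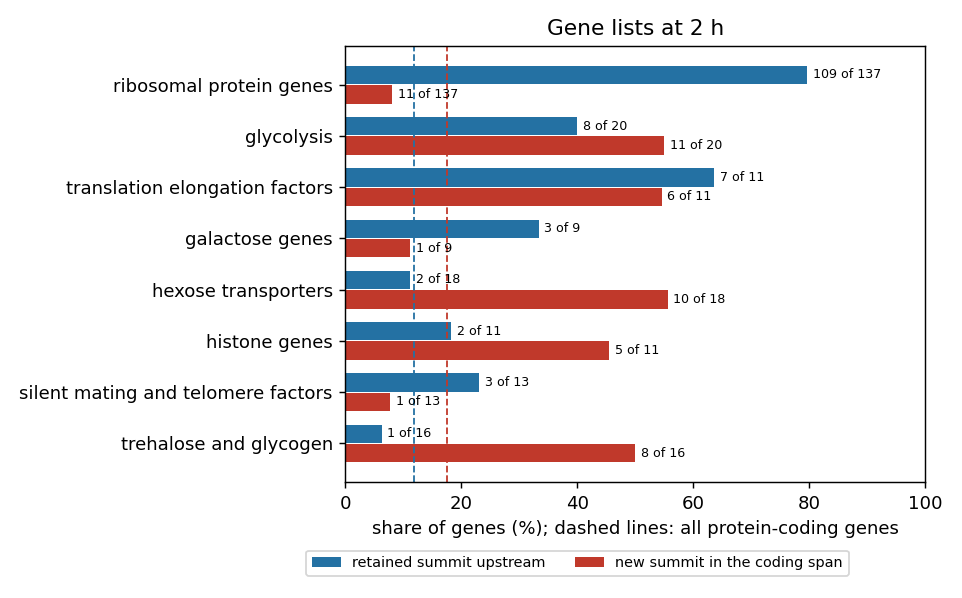
Share of genes (%) of each list with a retained summit within 500 bp upstream and with a new summit in the coding span at 2 h, with counts beside the bars. Dashed lines give the shares among all 6002 genes (11.8 and 17.5%). Ribosomal protein genes have mainly upstream summits (109 of 137), hexose transporters mainly new coding ones (10 of 18).

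Of the 16 genes of trehalose and glycogen metabolism, 8 had a new coding summit, against 17.5% of all genes and 200 of 799 genes of 2000 to 3000 bp, the range of their median span (2191.5 bp). Of their 3 upstream peaks at 0 h, 2 were lost. Of all 667 upstream peaks at 0 h 15.3% were lost, and of those below 60 tags 101 of 254. The new peaks were led by TPS1 (77.5), for trehalose-6-phosphate synthase, and GPH1 (75.5), for glycogen phosphorylase. In TSL1, for a regulatory subunit of the same synthase complex, a site present at 0 h went from 42.7 to 135 (3.17-fold). Of 11 histone genes 5 had a new coding summit, against 17.5% of all genes and 5.60% of genes under 500 bp, the highest being in the H3 genes HHT2 (65.4) and HHT1 (57.3) and in the linker histone gene HHO1 (53.9). These spans are short (median 399 bp), and 1.02 new summits per kb were found in them. Galactose genes had a new coding summit in 1 of the 9 members found in the table, PGM2 (45.2), which is 11.1% and under the share of all genes. Between GAL10 and GAL1 a retained peak was found, with scaled heights of 144 at 0 h and 90.3 at 2 h (ratio 0.625). UKY403 is known to express histone H4 from a GAL1 promoter on a plasmid, and whether tags from such copies add to the heights at GAL1 or at histone genes was not tested. In the list of silent mating and telomere factors SIR2, for a histone deacetylase, was the only one of 13 with a new coding summit (35.7), 7.69% against 17.5% of all genes, and the RAP1 gene itself had a retained upstream peak near the ceiling (194). Near-identical copies such as PDC1 and PDC5, TEF1 and TEF2, RPS4A and RPS4B or HHT1 and HHT2 share sequence, and where a tag fits both of a pair their values are uncertain.

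The 4 h list, which the definition of lost and new peaks did not use, held most of the new sites. Of 1387 new peaks, 1340 (96.6%, interval 95.5 to 97.5%) overlapped a 4 h peak, close to the 1007 of 1041 retained 0 h peaks (96.7%). The 4 h list is long: the 0 h and 2 h lists together hold 3650 of the 7723 peaks of the series, and it holds the rest. The overlap that its length alone would give was not computed. The share was 98.8% for new coding, 88.8% for new elsewhere and 79.1% (interval 70.6 to 86.1%) for new upstream peaks. Of the 171 lost peaks, 46 (26.9%, 20.4 to 34.2%) were listed again at 4 h, among them 6 of the 9 coding ones and the peak upstream of GPG1.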

How the data were processed

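Rap1 ChIP-seq peaks of the 0 h and 2 h groups were analysed, with the 4 h list used for whether a peak was listed later. Per the file headers, the authors called peaks with MACS2 2.0.10.20130712 from 1 alignment file per time point, without a control, at a q cutoff of 0.05, with tags extended to 146 bp, duplicates reduced to 1 tag at each position of a strand, and a background window of 10000 bp. The submitters' processing notes name Bowtie, SAMtools and sacCer3 as the build. The sources used here do not give whether replicates were pooled, nor the Bowtie version. The deposited pileup is a signal in tags, not scaled for depth, the deposited fold enrichment is a ratio to the local background, and the deposited −log10 q was given per peak by the authors' caller. Kept tags were 40.4 and 30.6% of all tags at 0 h and 2 h, which changes sensitivity to weak peaks between the lists. Without a control, uneven fragmentation and mapping remain in the heights.

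Peaks were matched by at least 1 shared bp and pileups divided by the header's kept tags. Ties in height were broken by −log10 q. A site's ratio used its highest matching 2 h peak, and a 1.5-fold difference was counted. The local background was recovered from pileup and fold enrichment, assuming that the caller adds 1 to both, whose lowest value is then the genome average. Summits were placed with the RefSeq gene table of assembly R64, the assembly of sacCer3, whose spans are coding spans, with strands read from systematic names. Chromosome ends were taken as the last bases of the lists. Python 3.11.15, pandas 2.3.3 and SciPy 1.17.1 were used, and matching and placing were tested on simulated data. Peaks and genes were named by rule: the highest new peaks per location (8, 4 and 4), 6 lost and 5 retained peaks by scaled height, the 5 largest ratios each way under 146 tags, and up to 3 new coding and 2 retained upstream peaks per gene list. The next highest lost peaks outside the rRNA genes and exceptions marked in the text were added. The members, gene lists and rules were chosen with earlier results of these data known. Alternatives covered matching, cutoffs, scaling, the ceiling (including a correction that converts a pileup to the tags expected before duplicate removal from the share of positions filled) and locations.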

Additional observations from a re-analysis of the deposited data

How the results depend on the processing

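No paired analysis was possible because each time point has 1 list with no value per replicate, and for the same reason no replicate could be left out. The planned motif search was not run. Requiring that peaks share 50% of both lengths gave coding shares of 83.5% for new and 15.4% for lost peaks. With −log10 q of at least 10, 76 peaks were lost and 842 new, and 18.2% of retained peaks were coding, and with a fold enrichment of at least 3, 699 were new. With the 2 h list shortened to 1212 peaks, 410 were lost and 416 new, of which 93.3% were coding. An equal minimum per 1000000 total tags gave 262 lost and 897 new peaks (89.0% coding). Summits at least 200 bp inside a span made up 64.7% of new, 12.4% of retained and 1.17% of lost peaks. Upstream shares of new, retained and lost peaks were 4.61, 26.5 and 33.9% with a window of 250 bp, and 10.2, 68.2 and 73.7% with 1000 bp.

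Median heights of lost, retained (0 h), retained (2 h) and new peaks were 14.4, 41.9, 28.8 and 12.0 per 1000000 total tags and 2.58, 6.59, 6.46 and 2.87 as fold enrichment. Unscaled, retained 2 h peaks had a median of 140 tags and new peaks of 58 tags. The median ratio at retained sites was 0.581 with total tags (65 sites at least 1.5-fold higher, 697 lower), 0.838 as fold enrichment (97 lower), 0.860 under 146 tags (57 higher, 95 lower), and 0.895 and 0.677 after correction for filled positions with kept and with total tags (471 lower with total tags). Unscaled it turned to 1.16 (243 higher, 1 lower). Relative to the median site 168 were higher and 15 lower. The share of coding sites at least 1.5-fold higher was 22.8% with total tags, 53.0% unscaled, 43.1% after correction with kept tags and 46.5% relative to the median site. For upstream sites it was 1.06, 13.5, 4.70 and 6.90%, and 4.59% under 146 tags. Of the other values recomputed, 88 in all, counts stayed within 1.5 times and shares and medians within the interval of the reported value. The settings on the rRNA genes, chromosome ends, repeated frames, summit shifts and single locations were added after seeing the data.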
